A study of Mus musculus with 2 samples.

Results

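Chemokine transcripts of γδ T cells were described by tissue and by cell class. The genes were Ccl3, Ccl4, Ccl5, Ccl9, Ccl1 and Xcl1, 6 of the 27998 genes listed for each library, chosen by symbol. Each symbol occurred once. γδ T cells are T lymphocytes that carry γ and δ chains in place of the common α and β chains of the antigen receptor. The cells came from untreated wild-type C57BL/6J mice aged 8 weeks, sorted as CD3e+ TCRγδ+ cells into 1 library from the liver and 1 library from the thymus. Only the thymic cells were first depleted of CD4+ and CD8+ cells with magnetic beads, and the study does not state how the mice were divided between the libraries. With 1 library per tissue, a difference between liver and thymus had no replicate check, tissue and library cannot be told apart, and no test was run.

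Chemokines are small secreted proteins that draw cells along a concentration gradient through receptors on the migrating cell. Ccl3 and Ccl4 attract monocytes, macrophages and activated T cells, and Ccl3 binds Ccr1, among other receptors. The receptors of Ccl5 include Ccr1 and Ccr3. Ccl9 is a rodent ligand of Ccr1. Ccl1 is a ligand of Ccr8, and Xcl1 is the ligand of Xcr1, a receptor of the dendritic cells that present captured antigen to CD8+ T cells. Natural killer cells and activated cytotoxic T cells are known sources of Ccl3, Ccl4, Ccl5 and Xcl1, and a resting liver holds many such lymphocytes beside its resident macrophages, the Kupffer cells.

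In the GENCODE vM21 annotation of GRCm38, the build of the authors' mm10 counts, 4 members lay in 1 stretch of chromosome 11 of 138906 bases that also held Ccl6. Their order was Ccl5 (ENSMUSG00000035042, chr11:83525778-83530518, minus strand), Ccl9 (ENSMUSG00000019122, chr11:83572919-83578636, minus), Ccl3 (ENSMUSG00000000982, chr11:83647844-83649355, minus) and Ccl4 (ENSMUSG00000018930, chr11:83662584-83664683, plus). Ccl3 and Ccl4 lay on opposite strands with 13228 bases between them. Ccl1 (ENSMUSG00000020702, chr11:82176657-82305690, minus) lay apart on the same chromosome, and Xcl1 (ENSMUSG00000026573, chr1:164931644-164935527, minus) on chromosome 1. The name of each family comes from its first cysteines. The stretches shown, for 5 of the members, are 30 coding bases of a single exon each, 5′ to 3′ on the coding strand, with cysteine codons in capitals, and start 3 codons before the first cysteine codon past codon 25.
Ccl4 (chr11:83663473-83663502): cccacttccTGCTGTttctcttacacctcc
Ccl5 (chr11:83529227-83529256): accactcccTGCTGCtttgcctacctctcc
Ccl9 (chr11:83575911-83575940): tcttcagatTGCTGCctgtcctataactca
Ccl1 (chr11:82178093-82178122): tccaatagcTGCTGCttgaacaccttgaag
Xcl1 (chr1:164932957-164932986): gagagtagcTGTgtgaacttacaaacccag
The 4 CC members shown had a pair of cysteine codons there, whereas Xcl1, a C chemokine, had a single one. Past codon 25, Xcl1 held 2 cysteine codons, Ccl4 and Ccl5 held 4 each, and Ccl9 and Ccl1 held 6 each. Among the members, the coding sequences of Ccl3 and Ccl4 were the most alike, with 69.5% identical columns of a global alignment. The longest run of bases shared by their transcripts was 9 bases, and over all pairs of members it was at most 15 bases. Ccl9 and its neighbour Ccl6 shared a run of 25 bases and 66.8% of aligned coding columns.

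After the cell filters (800 to 4000 detected genes and at most 6% mitochondrial UMIs) 8075 hepatic and 4351 thymic cells were kept. A UMI is a molecular tag that counts each captured transcript once. The kept cells held 24168037 and 17064752 UMIs, with medians of 2741 and 3271 per cell, and 60 cell barcodes occurred in both libraries. Levels are given in CPM, for which a gene's UMIs were added up over the cells of a group and scaled to a total of 1000000 UMIs. They carry exact Poisson 95% intervals, and ratios of levels or of UMIs carry exact conditional binomial intervals. Capture can differ between genes, so levels and shares of different genes were set side by side only as they were found. Shares are of cells with at least 1 UMI of a gene after random thinning of every cell to a depth of 1500 UMIs, with exact binomial intervals. Thinning left out 5 hepatic and 7 thymic cells. All intervals cover counting error only and leave out the spread between cells.

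The cells were clustered with all chemokine genes and the members' receptors left out, so that the members did not build the clusters. The class names were not independent of them. The study lists Ccl4 beside Tyrobp and Gzmb for its C5-L cluster, and Ccl5 beside Klra6 and Klra7 for its C7-L cluster. High Ccl4 in C5-like and high Ccl5 in C7-like cells were therefore known beforehand. Classes carry the study's cluster numbers and were named from marker genes. They are not the study's own clusters: the study kept fewer cells of both tissues, and its cluster sizes and shares differ from those here. In the liver, 2958 cells were C5-like (Tyrobp, Gzmb, Ncr1), 2661 were C4-like (Socs2, Cd40lg), 1111 were C3-like (Ly6c2, Dapl1), 793 were C6-like (Il17a, Il17f) and 274 were C7-like (Klra6, Klra7, Klrg1). A further 105 were C8-like, with myeloid transcripts such as Lyz2 and Apoe, 70 had interferon-induced genes, 44 were cycling and 41 were C2-like. In the thymus, 2434 cells were C1-like, 1024 C2-like, 530 cycling, 181 C3-like and 166 C6-like. Hemoglobin genes were among the leading genes of the C2-like cluster. T cell identity was checked with Cd3d, Cd3e and Cd3g: the share of cells with a UMI of any of them was at least 99.45% in every class named above except the C8-like one, where it was 68.6%. A further 14 hepatic cells lay in a B cell cluster.

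All 6 members were higher in the liver than in the thymus. The libraries differed in their classes: only 2 C4-like, 2 C5-like and 1 C7-like cells were thymic. The ratios over all kept cells therefore compare unlike mixtures of classes. Cd8a was among the leading genes of the C5-like cluster, and CD8+ cells were depleted from the thymic cells only. The part of this depletion in the class counts was not tested. Over all kept cells, Ccl3 was at 580 (570.4 to 589.7) CPM in the liver and at 1.35 (0.854 to 2.02) CPM in the thymus. Ccl4 was at 3079 (3057 to 3101) and 26.7 (24.3 to 29.2) CPM. Ccl5 reached 14562 (14514 to 14610) CPM in the liver and 256.7 (249.2 to 264.4) CPM in the thymus. These 3 CC chemokines thus differed 430.3-fold (286.7 to 679), 115.5-fold (105.3 to 126.9) and 56.7-fold (55.1 to 58.5). Xcl1 was at 1905 (1888 to 1923) against 46.8 (43.6 to 50.1) CPM, a ratio of 40.7 (38.0 to 43.8). Ccl9 was at 16.1 (14.5 to 17.8) CPM in the liver and had 4 UMIs in the thymus, a ratio of 68.7 (26.6 to 253.3). Ccl1 had 87 UMIs in the liver and none in the thymus, at least 20.5-fold higher against a floor of 3 UMIs in the thymic library. Without 1 hepatic cell described further on, this bound was 2.59. All 6 passed a 2-fold difference with at least 50 UMIs over both libraries, as did 12.3% of the 10750 genes so tested. Ccl1 met the limit of 50 UMIs through that 1 cell, without which it had 11 UMIs and was not called. Of the 23 thymic Ccl3 UMIs, 13 lay in the few thymic cells of the C8-like and B cell clusters, as did 3 of the 4 Ccl9 UMIs. Without both clusters the ratio was 926.2 (503.5 to 1932) for Ccl3 and 162.9 (28.9 to 6462) for Ccl9.

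**Figure D1:**
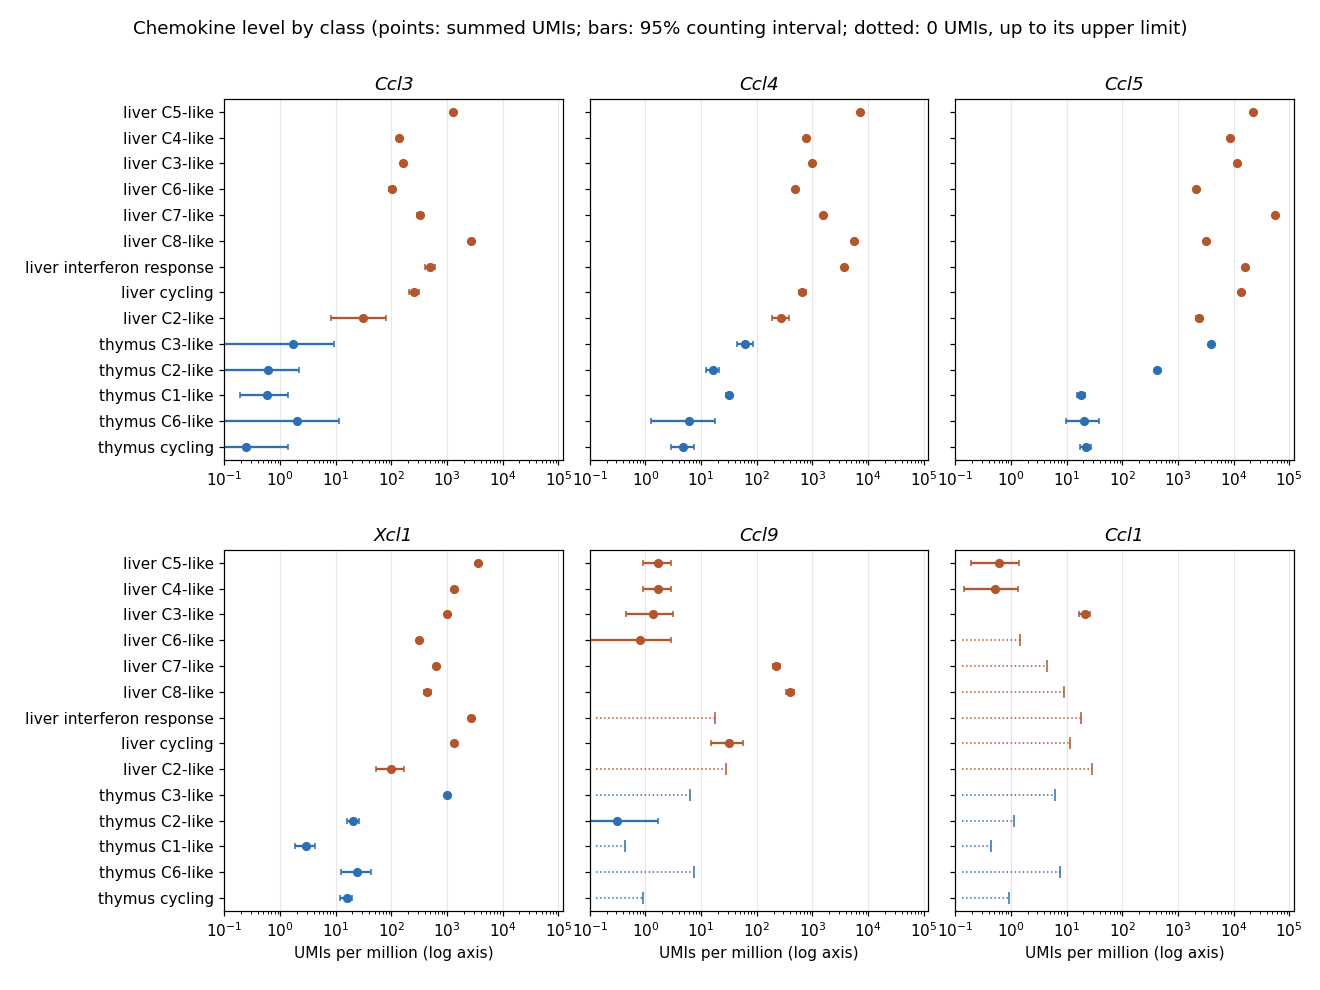
Level of each member by class in CPM on a log axis, liver in orange and thymus in blue, with 95% Poisson intervals; a dotted line marks 0 UMIs up to the upper limit. Ccl3 and Ccl4 are highest in C5-like and C8-like hepatic cells, and Ccl5 in C7-like cells at 54476 CPM. Hepatic and thymic C3-like cells lie close together for Xcl1 in the clustering drawn, and the direction of their difference changed under other settings.

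Ccl3 and Ccl4 had a similar order of levels over the hepatic classes. Leaving aside the C8-like cells, both were highest in C5-like cells, at 1263 (1239 to 1288) CPM for Ccl3 and 7080 (7023 to 7138) CPM for Ccl4. C5-like cells made up 36.6% of the hepatic cells and held 75.1% of the Ccl3 and 79.3% of the Ccl4 UMIs. In C4-like cells Ccl3 was at 138.5 (130.3 to 147) CPM and Ccl4 at 766.2 (746.8 to 786) CPM. The C5-like level was therefore 9.12-fold (8.57 to 9.73) higher for Ccl3 and 9.24-fold (8.996 to 9.49) higher for Ccl4. Ccl3, Ccl4, Ccl5 and Xcl1 were all at least 2-fold higher in C5-like cells, as were 2.69% of the 8812 genes tested. The ratio moved with the clustering: at the finer resolution of 1.2 it was 21.9 for Ccl3 and 21.4 for Ccl4, and with the liver clustered alone 20.5 and 21.9. At resolution 1.2 it compared 2077 C5-like with 1965 C4-like cells. A further 1495 hepatic cells, of which 798 were C5-like before, lay in an unnamed cluster and entered neither class. Their levels were in between, at 551.3 (529.5 to 573.7) CPM of Ccl3 and 3215 (3162 to 3268) CPM of Ccl4. The interferon-response cells came next for Ccl4, at 3626 (3370 to 3896) CPM, and then C7-like cells at 1539 (1455 to 1626) CPM. For Ccl3 these classes had 500.6 (408.6 to 607.2) and 329.2 (291.1 to 371) CPM, and the latter did not differ beyond its interval from cycling cells at 257.9 (205.4 to 319.7) CPM.

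Ccl3 was found in fewer cells than Ccl4 in each hepatic class. After thinning, 53.4% (51.6% to 55.2%) of C5-like cells had a Ccl3 UMI and 88.5% (87.3% to 89.6%) had a Ccl4 UMI, against 64.5% and 93.9% without thinning. In C4-like cells the shares were 12.7% (11.4% to 14.0%) and 42.3% (40.4% to 44.2%). The C5-like cells with Ccl4 held a median of 8 UMIs of it per cell and up to 127, and those with Ccl3 a median of 2 and up to 36. Both were unevenly spread: 9.20% of the C5-like cells held 50% of the thinned Ccl3 UMIs, and 16.3% held 50% of the Ccl4 UMIs. The number of Ccl4 UMIs for each Ccl3 UMI was 5.60 (5.49 to 5.72) in C5-like, 5.53 (5.18 to 5.91) in C4-like and 6.13 (5.62 to 6.70) in C3-like cells. It was 2.10 (1.95 to 2.25) in C8-like, 2.57 (1.98 to 3.35) in cycling and 7.24 (5.89 to 8.99) in interferon-response cells, so the pair was not in 1 fixed ratio over the classes.

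**Figure D2:**
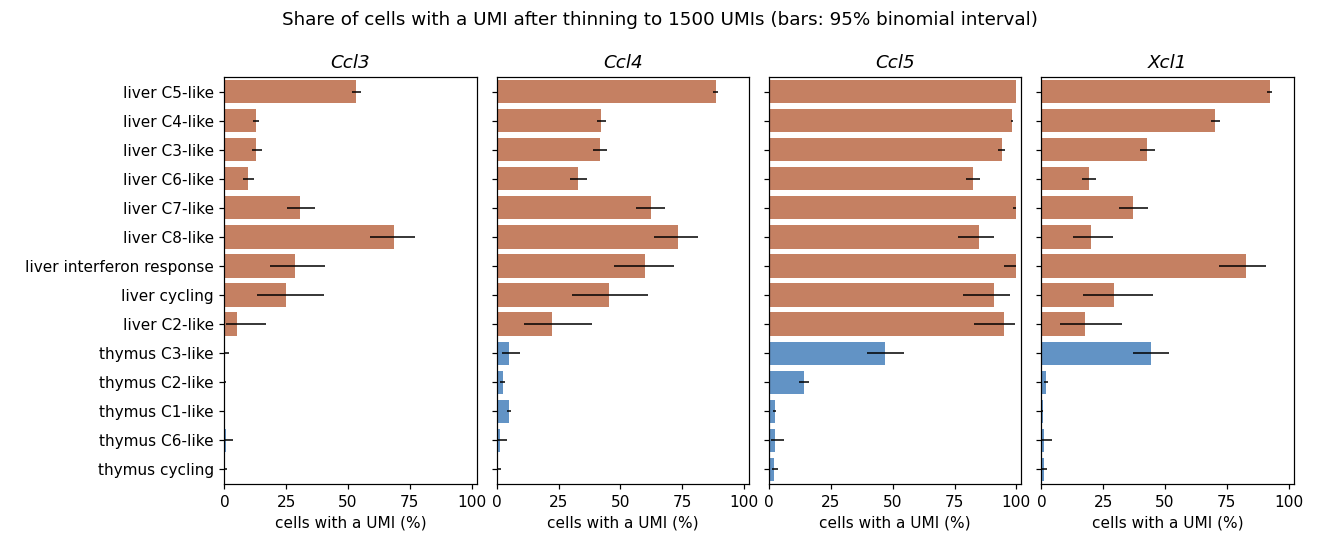
Share of cells with a UMI of the 4 common members after thinning to 1500 UMIs, by class, liver in orange and thymus in blue, with exact binomial 95% intervals. Ccl5 is found in at least 82.6% of the cells of each hepatic class, whereas Ccl3 reaches 53.4% in C5-like and 68.6% in C8-like hepatic cells.

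The C8-like cells had the highest Ccl3 level, 2685 (2529 to 2847) CPM, and the second highest Ccl4 level, 5629 (5402 to 5862) CPM. Macrophages are themselves known sources of both chemokines. All 12 Kupffer cell and monocyte markers were found in these cells, with a summed level of 42364 CPM against 170.1 to 699.1 CPM in the other hepatic classes. Of these markers, Lyz2, Apoe, Cd74, Cst3 and Lst1 also served to name the class, so a high sum was given by the naming. All 12 also had a UMI in C3-like and C4-like hepatic cells. The T cell genes Cd3d, Cd3e and Cd3g summed to 846.4 CPM there and to between 2607 and 4860 CPM in the other hepatic classes. Of the C8-like cells, 72 had a Cd3 UMI and 33 had none. Ccl3 was at 2735 (2557 to 2922) CPM with and 2507 (2193 to 2854) CPM without one, so that the intervals overlapped, and Ccl4 was at 5922 (5658 to 6194) and 4599 (4169 to 5060) CPM. The part of myeloid cells in these levels was not tested. Ccl5 and Xcl1 were lower without Cd3, at 1204 (989.8 to 1452) against 3807 (3596 to 4026) CPM and at 98.5 (45.1 to 187.1) against 538.9 (461.6 to 625.5) CPM. The median depth was 3823 UMIs with and 2321 without a Cd3 UMI.

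C6-like hepatic cells, which express interleukin-17 genes, had UMIs of all 4 common members at low levels: 100.9 (88.9 to 114.1) CPM of Ccl3, 484.6 (457.7 to 512.6) of Ccl4, 2156 (2099 to 2214) of Ccl5 and 307.5 (286.2 to 330) of Xcl1. Set against the level in all kept hepatic cells, these were 17.4%, 15.7%, 14.8% and 16.1%, close to 1 common share. The 5 marker genes of C5-like cells, Tyrobp, Gzmb, Fcer1g, Ncr1 and Cd244, lay between 15.3% and 19.9% in the same C6-like cells. The UMIs were unevenly spread over the C6-like cells. After thinning, the top 1% of them held 26.5% of Ccl3, 25.3% of Ccl4, 9.91% of Ccl5 and 27.3% of Xcl1 UMIs. Pairs of the 4 members were found together 1.044 to 1.785 times as often as their shares give. The part of free RNA in these levels was not tested. Other hepatic cells lay lower for some of these genes. The 41 C2-like cells were at 5.31% of the library level for Ccl3, 8.76% for Ccl4 and 5.26% for Xcl1, on 4, 35 and 13 UMIs. The 33 C8-like cells without a Cd3 UMI were at 8.27% for Ccl5, 5.17% for Xcl1 and 6.01% for Gzmb. The C6-like shares are given as a reference for those of other hepatic classes, not as a floor. The shares of C6-like cells with a UMI were 9.58% (7.63% to 11.9%) for Ccl3, 32.9% (29.7% to 36.3%) for Ccl4, 82.6% (79.8% to 85.2%) for Ccl5 and 19.2% (16.5% to 22.1%) for Xcl1. Their median depth, 2737 UMIs, was near that of C5-like cells, 2690 UMIs. C4-like cells were at 23.9% and 24.9% of the library level for Ccl3 and Ccl4, not far above C6-like cells, but at 59.1% for Ccl5 and 69.4% for Xcl1. At resolution 1.2, 1965 hepatic cells were C4-like, without the unnamed cluster of 1495 cells given above. These C4-like cells fell below the C6-like level of Ccl3, at 66.1 (59.5 to 73.2) CPM, and of Ccl4, at 376.9 (360.9 to 393.4) CPM. Their Ccl5 and Xcl1 were at 6590 (6522 to 6657) and 1142 (1114 to 1170) CPM.

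**Figure D3:**
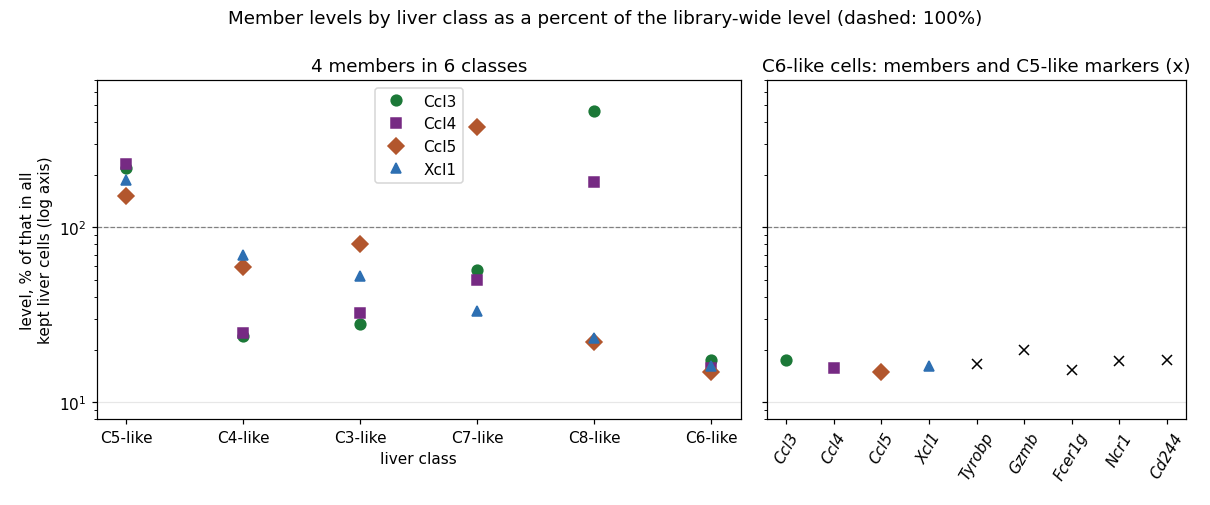
Level of the 4 common members in 6 hepatic classes as a percent of the level in all kept hepatic cells, on a log axis (left), and the same in C6-like cells for the members and for 5 markers of C5-like cells, drawn as crosses (right). The members fall together between 14.8% and 17.4% in C6-like cells and spread apart in the other classes.

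Ccl5 was the most widely found member in the liver. After thinning, each of the 2957 C5-like and 273 C7-like cells had a Ccl5 UMI, and 98.4% (97.8% to 98.8%) of C4-like and 94.0% (92.5% to 95.4%) of C3-like cells had one. C7-like cells, with the inhibitory receptor genes Klra6, Klra7 and Klrg1, had the highest level, 54476 (53972 to 54983) CPM, with a median of 82 Ccl5 UMIs in a thinned cell and up to 188. C5-like cells were at 21938 (21838 to 22039) CPM, interferon-response cells at 16365 (15817 to 16928), cycling cells at 13428 (13031 to 13835) and C3-like cells at 11744 (11633 to 11855) CPM. C4-like cells had 8604 (8538 to 8670) CPM, and no counting intervals of these classes overlapped. These intervals leave out the spread between cells. The variance of thinned Ccl5 UMIs over their mean was 21.5 in the 44 cycling, 11.6 in the 70 interferon-response and 13.5 in the C3-like cells. The order of these classes is therefore given only as found. The C7-like level was 2.48-fold (2.46 to 2.51) above the C5-like level, which was 2.55-fold (2.53 to 2.57) above that of C4-like cells. Within C5-like cells Ccl5 was more evenly spread than Ccl3 or Ccl4, and 36.0% of them held 50% of its UMIs, whereas in C8-like cells 7.62% did, against 11.4% for Ccl3 and 8.57% for Ccl4. C7-like cells made up 3.39% of the hepatic cells and held 12.7% of the Ccl5 UMIs.

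Compared with C5-like cells, C7-like cells had more Ccl5 and Ccl9 but less Ccl3, Ccl4 and Xcl1. Ccl9 was 132.9-fold (77.2 to 247.9) higher, whereas Ccl3 had 0.261 (0.230 to 0.294), Ccl4 0.217 (0.205 to 0.230) and Xcl1 0.179 (0.163 to 0.195) of the C5-like level. Of the 7849 genes tested, 3.1% were at least 2-fold higher in C7-like cells, among them Ccl5 and Ccl9. The level of Ifng, which encodes interferon-γ, was 0.608 (0.547 to 0.675) of that in C5-like cells.

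Xcl1 was highest in C5-like cells, at 3558 (3518 to 3599) CPM, followed by interferon-response cells at 2722 (2501 to 2957) CPM. Cycling and C4-like cells did not differ beyond their intervals, at 1339 (1216 to 1472) and 1322 (1297 to 1348) CPM, and C3-like cells came next at 1001 (969.3 to 1034) CPM. C7-like cells were at 635.3 (581.9 to 692.3) and C8-like cells at 441.4 (379.6 to 510.4) CPM. A UMI was present in 92.3% (91.3% to 93.2%) of C5-like and 70.4% (68.6% to 72.1%) of C4-like cells. The C5-like level was 2.69-fold (2.63 to 2.75) that of C4-like cells, a far smaller step than for Ccl3 and Ccl4. It stayed between 2.60 and 3.29 under the other clusterings. The upstream regions of Ccl3 and Xcl1 are given here because both genes were highest in C5-like cells when C8-like cells are left aside. They are the 250 bases before the RefSeq start sites (GRCm38.p6, minus strand, 5′ to 3′), with the Runx motif TGTGGT of either strand in capitals.
Ccl3 (chr11:83649379-83649628): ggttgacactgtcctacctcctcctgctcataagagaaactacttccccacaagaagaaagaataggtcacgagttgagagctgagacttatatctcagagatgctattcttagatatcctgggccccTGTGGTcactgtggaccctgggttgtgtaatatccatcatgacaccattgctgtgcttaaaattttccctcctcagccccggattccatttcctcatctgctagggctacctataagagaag
Xcl1 (chr1:164935523-164935772): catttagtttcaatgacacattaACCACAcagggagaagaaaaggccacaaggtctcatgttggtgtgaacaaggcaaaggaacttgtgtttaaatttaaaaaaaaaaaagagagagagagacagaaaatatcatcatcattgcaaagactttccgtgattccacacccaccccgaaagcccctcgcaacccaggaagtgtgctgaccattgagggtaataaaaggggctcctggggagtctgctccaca
RefSeq start regions were found for 4 of the 6 members. The Runx motif had 1 match each in Ccl3 and Xcl1 and no match in Ccl9 and Ccl1, and 14.05% of all 32851 regions of that length held it. The NFAT core GGAAA had 2 matches in Ccl3, 1 in Xcl1, 2 in Ccl9 and 3 in Ccl1, and 55.6% of all regions held it. The AP-1 motif TGANTCA had 1 match, in Ccl9 (6.75% of all regions), the NF-κB motif GGGANNNNCC had 2 matches in Ccl1 only (17.6%), and the T-box motif AGGTGT had none in any of them (11.8%). Both strands were searched, and a match describes letters only.

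Ccl9 was found in few cells. Of its 389 UMIs in the liver, 183 lay in C7-like cells, at 223.2 (192 to 257.9) CPM, and 162 in C8-like cells, at 392.9 (334.7 to 458.2) CPM. Together these classes had 4.69% of the hepatic cells. C5-like, C4-like, C3-like and C6-like cells had between 0.798 and 1.69 CPM, in which no cell held more than 1 UMI. After thinning, 13.2% (9.41% to 17.8%) of C7-like and 30.5% (21.9% to 40.2%) of C8-like cells had a Ccl9 UMI, against 0.304% (0.139% to 0.577%) of C5-like cells. Positive C7-like cells had a median of 2 UMIs of it. Kupffer cell and monocyte markers summed to 337.8 CPM in C7-like cells, within the 170.1 to 699.1 CPM of the hepatic classes other than C8-like. The sum was above the 264.1 CPM of C5-like and 236.1 CPM of C4-like cells. Of the 12 markers, 9 had a UMI in C7-like cells, and C1qb, Csf1r and Adgre1 had none. Their part in the Ccl9 level was not tested. Among C8-like cells, Ccl9 was at 417.4 (349.7 to 494.4) CPM with a Cd3 UMI and at 306.6 (203.7 to 443.1) CPM without. The cycling hepatic cells had 10 UMIs, of which 9 were in 1 cell.

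Within C7-like cells the other members did not follow Ccl9 in the same way. The 36 thinned cells with a Ccl9 UMI had Ccl5 at 66972 CPM against 54534 CPM in the 237 cells without, a ratio of 1.23 (1.19 to 1.27). Xcl1 was lower in them, at 185.5 against 658.2 CPM, a ratio of 0.282 (0.133 to 0.528) that rested on 10 Xcl1 UMIs. Xcl1 was found in 22.2% of the cells with and 39.2% of the cells without Ccl9, and the correlation of log2(UMIs + 1) between Ccl5 and Xcl1 over the 273 thinned C7-like cells of this library was -0.33. Without thinning that correlation was -0.09. In such splits genes were ranked and called at 1.5-fold after 10 CPM were added to both levels, and the ratios printed are without that addition. Of 937 genes tested, 7.79% were at least 1.5-fold higher in cells with Ccl9. Genes were named by rank only if they had at least 100 CPM and 50 UMIs in the cells with the member, in this and the other splits. The first 5 so named were Hmgb2 at 1.63 (1.17 to 2.24), Ctsd, a lysosomal protease, at 1.60 (1.19 to 2.12), Lgals1 at 1.55 (1.34 to 1.78), Gzma, a granule protease, at 1.53 (1.41 to 1.66), and Hsp90aa1 at 1.48 (1.15 to 1.88). Of 4 tested effector transcription factors, Zeb2 at 1.80 (1.095 to 2.85) and Runx3 at 1.71 (0.877 to 3.12) passed 1.5-fold, on 24 and 14 UMIs in the cells with Ccl9 and, for Runx3, with an interval that includes 1. Of 8 tested receptor-signal genes none was higher, and Jun at 0.514 (0.328 to 0.772) and Nfkbia at 0.505 (0.283 to 0.840) were lower by that limit, as were 14.2% of all genes tested.

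**Figure D4:**
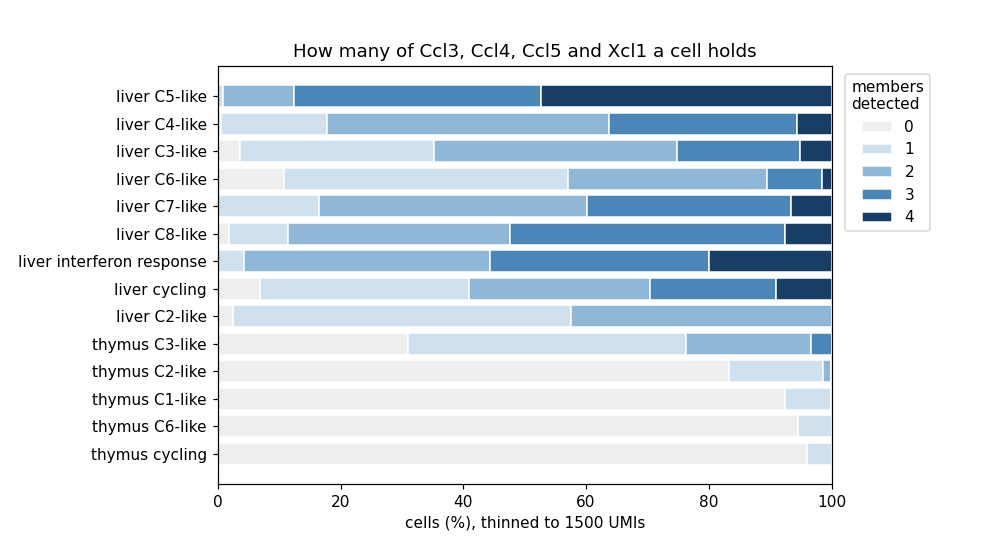
Percent of cells in each class with 0 to 4 of Ccl3, Ccl4, Ccl5 and Xcl1 detected after thinning to 1500 UMIs. In C5-like hepatic cells 47.4% hold all 4, whereas 87.9% of all thymic cells hold none.

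Ccl3 and Ccl4 were found together more often than their shares give, over the whole hepatic library and within C5-like cells. Over all thinned hepatic cells, Ccl3 and Ccl4 were found together in 1927 cells where the product of their shares gives 1379, a ratio of 1.40. Within C5-like cells 1492 cells held both against 1397, a ratio of 1.07 (1.03 to 1.11). In C4-like cells the ratio was 1.305 (1.13 to 1.499) and in C3-like cells 1.36 (1.085 to 1.67). Intervals of pair ratios are exact binomial intervals of the joint count, with the expected count held fixed. Such a ratio cannot exceed the inverse of the larger share, which for Ccl4 was 88.5% in C5-like cells and 59.3% over the library. The ratios of different groups are therefore not compared. C5-like cells were not uniform. At resolution 1.2 the shares with Ccl3 and Ccl4 were 58.9% and 91.5% in the C5-like cluster. In the unnamed cluster that took 798 of the C5-like cells they were 31.8% and 71.2%. The part of this mixture in the C5-like pair counts, and in the splits of C5-like cells below, was not tested. The correlation of log2(UMIs + 1) between Ccl3 and Ccl4 was 0.43 in C5-like, 0.35 in C3-like and 0.27 in C4-like thinned cells. Since Ccl4 was in most C5-like cells, the counts say more than the shares there. The 1579 C5-like cells with a Ccl3 UMI had Ccl4 at 9673 CPM against 4190 CPM in the 1378 without, 2.31-fold (2.25 to 2.37) higher, the highest ratio among genes with at least 100 CPM and 50 UMIs there. Of the 6136 genes tested, 0.196% were at least 1.5-fold higher and 0.212% at least 1.5-fold lower. Next in rank were Nedd9 at 1.38 (1.16 to 1.66), Gzmb, which encodes granzyme B, at 1.33 (1.298 to 1.37), Osgin1 at 1.31 (1.21 to 1.43) and Glrx at 1.34 (1.11 to 1.62). Xcl1 was 1.28-fold (1.24 to 1.32) and Ccl5 1.07-fold (1.05 to 1.08) higher in cells with Ccl3, while Ifng was at 0.935 (0.873 to 1.001) of its level in cells without. None of 14 tested receptor-signal genes, such as Nr4a1, Egr1 and Tnfrsf9, passed 1.5-fold in either direction.

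The C5-like cells split by Ccl4 put Ccl3 first. In the 2617 cells with a Ccl4 UMI, Ccl3 was at 1399 CPM against 339.2 CPM in the 340 without, 4.12-fold (3.54 to 4.83) higher, and Xcl1 was 1.31-fold (1.24 to 1.38) higher. At least 1.5-fold higher were 3.18% of the 6136 genes, and 1.73% were lower by that limit. Among genes named by rank, Ccl3 was followed by Ddit3, a stress-induced transcription factor, at 1.85 (1.41 to 2.46), Hilpda at 1.64 (1.25 to 2.18), Glrx at 1.57 (1.12 to 2.26) and Spry2, an inhibitor of growth factor signalling, at 1.53 (1.24 to 1.896). None of the 14 tested receptor-signal genes passed 1.5-fold in either direction. Tcf7, under 100 CPM, passed it among 6 tested effector factors, on 57 and 3 UMIs and with an interval of 0.810 to 12.4. Cells split by Xcl1, 2729 with and 228 without a UMI, differed in Ccl4 by 1.51-fold (1.44 to 1.59) and in Ccl3 by 1.32-fold (1.18 to 1.48), and in Ccl5 by 1.015-fold (0.992 to 1.04). Of all tested genes 5.69% reached 1.5-fold, and those first by rank were Abcb9 at 2.02 (1.34 to 3.18), Ptger4 at 1.95 (1.22 to 3.33), Spry2 at 1.79 (1.37 to 2.39), Ubxn4 at 1.75 (1.15 to 2.79) and Rasal3 at 1.71 (1.18 to 2.58). Of the 14 receptor-signal genes none was higher, and Crtam was at 0.531 (0.261 to 1.22), past 1.5-fold in the other direction on 57 and 9 UMIs and with an interval that includes 1. That limit was passed downward by 2.62% of all genes tested. Ccl5 could not be split, since no C5-like cell lacked it.

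All 4 common members were found in 1401 of the 2957 thinned C5-like cells (47.4%), in 5.68% of C4-like, 5.14% of C3-like, 6.59% of C7-like and 1.64% of C6-like cells. In C4-like cells the most frequent number was 2, in 46.0% of cells. Over all hepatic cells 1.82% held none, against 87.9% of thymic cells. No thymic cell held all 4, and 8 thymic cells held 3.

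Ccl1 rested on 1 cell. Of its 87 UMIs in kept hepatic cells, 76 came from a single C3-like cell with 7506 UMIs and 2233 genes, and 11 further cells had 1 UMI each. The same cell held 244 Xcl1, 58 Ccl4, 14 Ccl3 and 107 Ccl5 UMIs, 13 UMIs of Cd3 genes and 1 of Ifng. Among the barcodes that the filters left out, the 15 Ccl1 UMIs were likewise in 1 barcode, which had 767 genes, 69 Xcl1 and 119 Ccl4 UMIs. The C3-like level of 21.2 (16.7 to 26.4) CPM became 0.544 (0.0659 to 1.97) CPM without the cell, near the 0.5998 (0.195 to 1.40) CPM of C5-like and 0.520 (0.142 to 1.33) CPM of C4-like cells. At resolution 1.2 the cell belonged to a cluster of 124 hepatic cells led by Gzmc, Tnfrsf9 and Crtam, genes induced when T cells are activated, and scored as recently activated. That cluster had 5 of the 12 cells with Ccl1, and its level was 173.1 (137.2 to 215.4) CPM with and 8.80 (2.40 to 22.5) CPM without the cell. Its Xcl1 level was 6709 (6475 to 6949) CPM, above the 3675 CPM of the C5-like cluster at that resolution, and its Ccl3 and Ccl4 levels were 1142 (1047 to 1244) and 6003 (5782 to 6231) CPM. No Ccl1 UMI occurred in 4351 thymic cells, and the floor of 3 UMIs allows a level of up to 0.176 CPM.

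**Figure D5:**
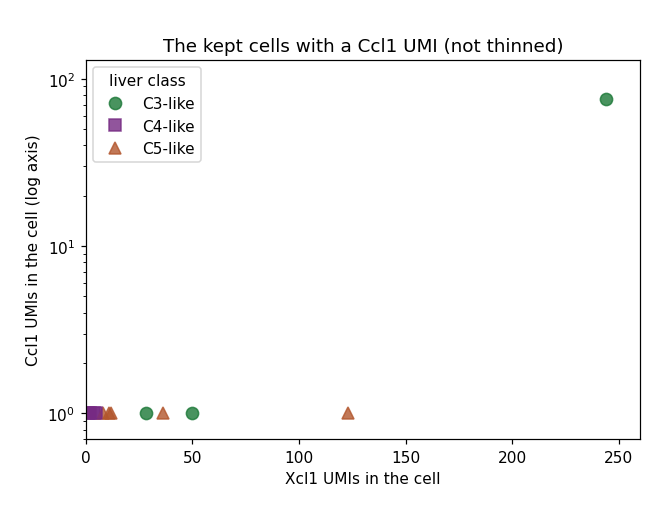
Ccl1 UMIs (log axis) against Xcl1 UMIs in the 12 kept cells with a Ccl1 UMI, without thinning, by hepatic class. One C3-like cell stands apart with 76 Ccl1 and 244 Xcl1 UMIs, and the others have 1 Ccl1 UMI each.

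In the thymus, Xcl1 and Ccl5 were concentrated in few cells. C3-like cells made up 4.16% of the thymic cells and held 583 of the 798 Xcl1 UMIs (73.1%) and 2280 of the 4381 Ccl5 UMIs (52.0%). Their Xcl1 level was 986.5 (908.1 to 1070) CPM against at most 24.5 (12.7 to 42.8) CPM in the other thymic classes, and 44.2% (36.8% to 51.8%) of them had an Xcl1 UMI. For Ccl5 they were at 3858 (3701 to 4020) CPM and 47.0% (39.5% to 54.5%) of cells, and C2-like cells came next with 421.4 (399.5 to 444.1) CPM and 14.0% (11.9% to 16.3%). Over the whole class, cells with Ccl5 and with Xcl1 overlapped little more than their shares give, 41 cells against 37.6 among 181 cells. The class was not uniform. At the finer resolution 43 thymic cells stayed C3-like, 86.05% of them with a Ccl5 UMI and 30.23% with an Xcl1 UMI. An unnamed cluster held 134 thymic cells, of which 133 were C3-like before, and 446 of the 798 Xcl1 UMIs. Its shares were 33.58% for Ccl5 and 49.25% for Xcl1. The part of this mixture in the pair count was not tested. C1-like cells, the largest thymic class, had 2.92 (1.89 to 4.31) CPM of Xcl1 and 18.2 (15.5 to 21.3) CPM of Ccl5.

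Hepatic and thymic C3-like cells had Xcl1 at 1001 and 986.5 CPM, a ratio of 1.015 (0.930 to 1.11). Ccl5 was 3.04-fold (2.92 to 3.18) and Ccl4 15.9-fold (11.5 to 22.6) higher in the liver, and Ccl3 had 596 UMIs against 1. Among 5784 genes tested, 5.46% were at least 2-fold higher in the hepatic cells, including Ccl3, Ccl4, Ccl5 and, through its 1 cell, Ccl1. The class is 1 cluster at resolution 0.6. At resolution 1.2, 133 of the 181 thymic cells lay in another cluster of 134 thymic and 17 hepatic cells, without a name and led by Zbtb16, Izumo1r and Icos, in which the thymic cells had 993.3 (903.3 to 1090) CPM of Xcl1 and 2621 (2474 to 2776) CPM of Ccl5. With the 43 thymic cells then left as C3-like, the ratio of liver to thymus was 1.57 (1.21 to 2.08) for Xcl1, 1.5 (1.41 to 1.60) for Ccl5, 34.8 (11.9 to 169) for Ccl4 and 15.7 (2.79 to 620) for Ccl3. For Xcl1 it was 0.834 (0.757 to 0.920) at resolution 0.8 and 0.811 (0.740 to 0.890) without the highest doublet scores, so no direction is given for it. Without those scores the Ccl4 ratio was 9.82 (7.10 to 14.0) and the Ccl3 ratio 52.9 (9.42 to 2097). In C6-like cells, Ccl5 was at 2156 against 20.4 (9.79 to 37.6) CPM, a ratio of 105.6 (57.4 to 220.2), and 6.4% of 5137 genes were at least 2-fold higher in the liver. Ccl3, Ccl4, Ccl5 and Xcl1 all passed that limit there, each from the low hepatic level given above.

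Ccl4 was the member most often found in C1-like thymic cells. They held 267 of the 455 thymic Ccl4 UMIs at 31.2 (27.5 to 35.1) CPM, and 5.02% (4.19% to 5.96%) of them had a UMI, against 2.30% (1.75% to 2.98%) with a Ccl5 UMI. A Ccl4 UMI was found in 1.21% (0.146% to 4.28%) of C6-like and 0.566% (0.117% to 1.65%) of cycling thymic cells, and the median depths of C1-like, C6-like and cycling cells were 3178, 2779 and 7090 UMIs. C3-like thymic cells had a higher Ccl4 level, 62.6 (44.1 to 86.3) CPM, and a like share, 4.97% (2.30% to 9.23%). At resolution 1.2 the level was 49.6 (42.5 to 57.6) CPM in a C1-like cluster led by Tnfsf11 and 18.2 (14.7 to 22.3) CPM in the other, led by Igfbp4. Only 5 Ccl3 UMIs lay in C1-like cells, so the number of Ccl4 UMIs for each Ccl3 UMI was 53.4 (22.6 to 165.8) there and 5.31 (5.21 to 5.41) over all hepatic cells.

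The genes whose levels were most like those of each member were sought over 12 groups of class and tissue with at least 50 cells, among 2332 genes, by Pearson's r of log2(CPM + 10). The groups share 2 libraries, and r is a description. Ccl3 and Ccl4 were each other's nearest gene, with r = 0.973, and Tyrobp, an adaptor of activating receptors, was next among genes of both lists, with 0.943 and 0.971. Tyrobp, Gzmb and S1pr5 also served to name classes. Ccl5 was nearest to Klrd1 (0.982), Klre1 (0.953), Fasl (0.952), Slamf7 (0.949) and Klrc2 (0.948), receptors and a death ligand of cytotoxic lymphocytes. Xcl1 was nearest to Klrc1 (0.978), Klrb1c (0.973), Klrd1 (0.968), Gzmb (0.968) and Klrc2 (0.953). Ccl9 was nearest to Zeb2 (0.940), Plek (0.915), S1pr5 (0.905), Rap1b (0.904) and Mt1 (0.897). Between members, r was 0.922 for Ccl5 and Xcl1, 0.748 for Ccl3 and Xcl1 and 0.167 for Ccl9 and Xcl1. Ccl1 had no gene above 0.741 (Gm8369), and its pattern was that of 1 cell.

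The receptors described here were sparse in the sorted cells. Ccr8 had 18.2 (16.2 to 20.3) CPM in the thymus, 62.6 (44.1 to 86.3) CPM in its C3-like cells and 13 UMIs in the whole hepatic library, whereas its ligand Ccl1 was at 0 in the thymus. Ccr1 had 20 hepatic UMIs, of which 15 lay in C8-like cells, and Xcr1 had 7 hepatic UMIs and 1 thymic UMI. Ccr3 had 4 UMIs in the liver and none in the thymus, and the scavenging receptor gene Ackr2 had none in either library.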

How the data were processed

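Whole-number UMI counts for 27998 genes were deposited by the authors, as 1 matrix for 8658 hepatic and 1 for 4541 thymic barcodes. The submitters' processing notes name Cell Ranger, Seurat 3.0 and mm10, and the Cell Ranger version is not given in the sources used here. The libraries are 10x 3′ v2 libraries, in which UMIs count molecules near the 3′ end. The thymic matrix had 2 stray lines that were not read. Totals were 25040963 and 17371662 UMIs.

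The deposited counts were used unscaled. Cells with 800 to 4000 genes and at most 6% mitochondrial UMIs were kept, and 583 hepatic and 190 thymic barcodes were left out. Both libraries were clustered together in Seurat 5.3.0 (R 4.3.3) with log normalization, 2000 variable genes, 30 principal components and resolution 0.6. Of the variable genes, 22 chemokine and receptor genes were left out and 1978 used. A cluster took a class name when the mean log2 ratio of its markers to all other cells was at least 0.5, at least 0.2 above the next class, over at least 3 detected markers. These limits were chosen after the clusters were seen. Scrublet, run through Scanpy 1.11.5, called 1 hepatic and 2 thymic doublets by its own threshold, so doublets were kept, and the 559 and 158 highest scores were removed in an alternative.

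UMIs were summed per class and library in Python 3.11.15 with NumPy 2.4.6 and SciPy 1.17.1, and levels and ratios were given 95% intervals that cover counting error only. A gene was compared when both groups together held 50 UMIs or more of it, and called from a 2-fold difference upward. Calculations were checked on simulated data. Genes named beside the members were the other chemokines with at least 50 CPM in a class, 5 receptors of the members, fixed lists of cytokine, receptor-signal and effector factor genes, the 5 genes most like each member, and the 5 highest in cells with a member's UMI. Named clusters and their leading genes were chosen after values were seen. One further receptor and 1 coding stretch are not reported here. Sequences came from GENCODE vM21 and RefSeq (GRCm38.p6). The alternatives covered cell filters, clustering, doublets, scaling and thinning. The members and all lists were chosen with earlier results of these data known.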

Additional observations from a re-analysis of the deposited data

Results flagged for a closer look

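Signal of the members was also found in barcodes that the cell filters left out and that enter no comparison above. Of the 583 hepatic barcodes left out, 548 had under 800 genes and 35 had over 6% mitochondrial UMIs. Their Ccl5 level was 12889 (12652 to 13129) CPM, their Ccl4 level 1868 (1779 to 1961), their Xcl1 level 1006 (940.4 to 1075), their Ccl3 level 331.1 (294 to 371.5) and their Ccl9 level 18.33 (10.48 to 29.77) CPM. Kept hepatic cells had 14562, 3079, 1905, 580 and 16.1 CPM in the same order. Ccl1 was at 17.18 (9.618 to 28.34) CPM through 15 UMIs in 1 barcode.

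Of the 190 thymic barcodes left out, 181 had too few genes and 9 too many mitochondrial UMIs. They had 1157 (1039 to 1283) CPM of Ccl5, 74.94 (47.51 to 112.4) CPM of Xcl1 and 29.32 (13.41 to 55.67) CPM of Ccl4, against 256.7, 46.8 and 26.7 CPM in kept thymic cells. Ccl5 UMIs were in 16.84% of them. Ccl3, Ccl9 and Ccl1 had none.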

How the results depend on the processing

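The direction of each liver-to-thymus difference held under all settings tried. No paired analysis was possible because each tissue had 1 library, and no replicate could be left out. Of the alternative values of the ratios other than that of Ccl1, 37 stayed within the counting interval and 8 did not. Without C8-like and B cell clusters the ratio was 926.2 for Ccl3 and 135.3 for Ccl4. As the mean of the cells' own CPM it was 98.31 for Ccl4 and 42.86 for Ccl5, and without mitochondrial and ribosomal-protein genes in the total 104 for Ccl4, 51.1 for Ccl5 and 36.7 for Xcl1. With cells of at least 500 genes it was 53.64 for Ccl5. The bound for Ccl1 was 2.59 without its 1 cell and between 18.45 and 23.7 under the other settings, and no mean over cells was possible for Ccl1, at 0 in the thymus.

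The ratio of C5-like to C4-like levels moved most with the clustering, but Ccl3, Ccl4, Ccl5 and Xcl1 were higher in C5-like cells in all settings. At resolution 1.2 an unnamed cluster of 1495 hepatic cells entered neither class. In the order Ccl3, Ccl4, Ccl5, Xcl1 the ratio was 21.9, 21.35, 3.515 and 3.218 at resolution 1.2. With the liver clustered alone it was 20.49, 21.93, 3.648 and 3.287. It was 8.128, 8.47, 2.447 and 2.608 with 3000 variable genes, and 8.149, 7.646, 2.348 and 2.599 with no gene left out. Without the highest Scrublet scores it was 11.36, 11.73, 2.682 and 2.896. For Ccl4 it was 9.674 at resolution 0.8, for Xcl1 2.608 with 20 principal components, and as a mean of the cells' own CPM 10.24 for Ccl3 and 10.21 for Ccl4. Among C3-like cells, liver over thymus was 15.66 for Ccl3, 34.83 for Ccl4, 1.5 for Ccl5 and 1.569 for Xcl1 at resolution 1.2. For Xcl1 it was 0.8337 at resolution 0.8 and, without the highest Scrublet scores, 0.8113, when Ccl4 was at 9.823. For C7-like over C5-like cells, Ccl4 was at 0.2002 and Ccl5 at 2.307 at resolution 1.2, and at 0.2002 and 2.52 without the highest Scrublet scores. These settings for C3-like and C7-like cells, and the removal of single cells or clusters, were chosen after seeing the data. The cause of these moves was not tested.

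Deeper cells gave higher shares. In C5-like cells the share with a UMI was 64.5% for Ccl3, 93.85% for Ccl4 and 97.77% for Xcl1 without thinning, and 58.41%, 91.57% and 96.17% at 2000 UMIs. Pairs counted over the whole hepatic library gave 1.397 times the product of the shares for Ccl3 and Ccl4, 1.224 for Ccl3 and Xcl1 and 1.136 for Ccl4 and Xcl1. At a median of 2741 UMIs per hepatic cell, absence of a UMI in a cell does not show absence of the transcript.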

Other observations

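Of 38 further chemokine gene entries in the files, some of which share a symbol, 21 had a UMI in kept cells and 9 reached 50 CPM in a class. All 9 were highest in the C8-like hepatic cells, where the summed level of the Kupffer cell and monocyte markers was 42364 CPM. Cxcl2, which draws neutrophils, was at 6492 (6248 to 6743) CPM there, Ccl6 at 657.2 (581.3 to 740.3), Cxcl10, induced by interferon, at 574.7 (503.9 to 652.8) and Ccl2, which draws monocytes, at 368.6 (312.3 to 432.1) CPM. For Cxcl10 the interferon-response cells, at 471.5 (382.3 to 575.2) CPM, did not differ from the C8-like cells beyond the intervals. Outside the C8-like cells, Cxcl2 was highest in C6-like hepatic cells, at 634.6 (603.8 to 666.5) CPM, against 17.3 (14.6 to 20.3) CPM in C5-like and 17.8 (14.9 to 21.1) CPM in C4-like cells. The Kupffer cell and monocyte markers summed to 465.5 CPM in C6-like, 264.1 CPM in C5-like and 236.1 CPM in C4-like cells, and their part in the Cxcl2 level was not tested.

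Between C4-like and C5-like hepatic cells, Ifng did not follow Ccl3 and Ccl4. It was at 1051 (1029 to 1074) CPM in C4-like and at 752 (733.5 to 770.8) CPM in C5-like hepatic cells, a ratio of 0.715 (0.692 to 0.739) for C5-like over C4-like cells. Interferon-response cells had 1074 (937.2 to 1226) CPM, and Ifng was at 10.96 (9.44 to 12.65) CPM in the whole thymic library. Like Ccl3 and Ccl4, Ifng was below its C5-like level in C7-like cells, at 457.3 CPM, and in C6-like hepatic cells, at 155.6 CPM.

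The 14 hepatic cells of the B cell cluster had Ccl5 at 4686 (4077 to 5361) CPM and Xcl1 at 972.6 (706.7 to 1306) CPM, above the C6-like levels of 2156 and 307.5 CPM. Doublets with T cells were not removed from them.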
